A study of Mus musculus with 72 samples.

Results

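The genes of mitochondrial protein import and inner-membrane assembly were examined in RNA-seq read counts of mouse hearts. The members are the 35 protein-coding genes of the count table whose symbol is Timm, Tomm or Chchd followed by a number, together with Romo1 and Cox14, out of 24237 genes listed. They comprise 15 Timm genes, 10 Tomm genes, 8 Chchd genes and the other two. The study asked how exposure to the dioxin TCDD before birth, or germline loss of its receptor AHR, changes the adult heart. Right atria, left atria and ventricles of C57BL/6J mice were dissected and sequenced separately, and the 72 libraries fall into 24 groups of 3. Each sex and chamber held naïve Ahr+/+ mice, low-dose TCDD-exposed Ahr+/+ mice, high-dose TCDD-exposed Ahr+/+ mice and Ahr-/- mice, which lack AHR in every cell. Dams of low-dose and high-dose mice were gavaged with 0.1 and 1 µg/kg TCDD, a unit the labels leave out, and naïve dams received the corn oil vehicle. By the published methods, Ahr-/- dams were mated with Ahr-/- males and were left untreated. In Ahr-/- mice, loss of AHR thus cannot be told apart from the lack of vehicle gavage and the genotype of the dam. The labels give day 18.5 of gestation as the last gavage, after days 13.5 and 15.5, whereas the published methods give only earlier days, none of them shared with the labels. Hearts were collected at 9 months of age by the labels and slightly later by the methods. The labels name the cell type as cardiomyocytes, but each library is RNA of a whole dissected chamber, so that fewer cells of a type and less RNA per cell cannot be told apart. Total counts ran from 11873417 to 28789382 per library, with a median of 19231739.

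Most mitochondrial proteins are made in the cytosol and enter through the TOM complex of the outer membrane, which is the common gate. Precursors with a cleavable presequence then pass through the TIM23 complex of the inner membrane, while metabolite carriers are escorted across the intermembrane space by small TIM chaperones and inserted by the TIM22 complex. Small cysteine-rich proteins, many of them of the Chchd family, are trapped in the intermembrane space by disulfide formation. Heart muscle is unusually rich in mitochondria.

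Libraries were first compared with their labels by Xist and Y-linked transcripts, which mark sex, and by Myl4, the atrial myosin light chain, with a limit of 100 CPM. CPM denotes read counts scaled to library size after trimmed-mean (TMM) scaling. Against these markers 20 of 72 libraries disagreed with a label, 8 by sex and 16 by chamber, and 12 of the 20 carry library numbers from 49 to 72. In the ventricle groups these are library 53 (naïve male), 59 (Ahr-/- male), 65 (high-dose male) and 71 (low-dose male), which had less than 1 CPM of summed Y-linked transcripts and held 643 to 4100 CPM of Myl4. They further include libraries 45 and 46 of low-dose males with 182 and 714 CPM, library 47 of low-dose females with 109 CPM and library 35 of naïve females with 190 CPM. Among libraries 49 to 72, Xist, Y-linked transcripts and Myl4 gave the same pattern in all 4 treatments. The library labelled female right atrium read as male atrium and that labelled male left atrium as male ventricle. The library labelled male ventricle read as female atrium. By these markers, these 3 libraries of a treatment hold between them the sexes and chamber kinds of their 3 labels, as exchanged labels would give. Whether labels were exchanged was not tested. The chamber was read from Myl4 alone. Of the libraries so read as atrium, 50, 59, 62 and 68 had more summed ventricular than atrial transcripts, and 53, 56, 65 and 71 had less. Library 62 had 6230 CPM of ventricular and 1680 CPM of atrial ones. Whether such libraries hold mixed tissue was not tested. Groups were kept as labelled, and the main counts are also given without the libraries that go against their label.

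In naïve ventricles the members covered a wide range of levels, compared here as CPM per kb of coding length. Chchd2, a nuclear-encoded protein of the intermembrane space, was the most abundant, with a median of 1080 over 6 libraries (range 953 to 1300), and its range overlapped that of no other member. Chchd3, a scaffold of the cristae-shaping MICOS complex, followed with 511 (323 to 577). Chchd10, a relative of Chchd2 that is mutated in inherited motor neuron and muscle disease, had a median of 452 (234 to 629). Tomm5, a small subunit of the TOM channel, had 425 (334 to 560), and Cox14, an early assembly factor of cytochrome c oxidase, had 385 (278 to 452). The ranges of these 4 genes overlap one another. Without libraries 35 and 53, which go against their label, Chchd3 ran from 497 to 577 and Cox14 from 310 to 452 over 4 libraries, which do not overlap, and the order of the first 5 genes was the same. Romo1, a small inner-membrane protein that modulates reactive oxygen species, had a median of 123, with its lowest library at 82.7, and ranked 13 of the 35 (15 without those libraries). The lowest members were Chchd6, the MICOS partner of Chchd3, at 10.2 (8.56 to 12.7), Tomm20l, a relative of the receptor Tomm20, at 1.42 (0.167 to 4.06), and Timm8a2. Timm8a2 had counts in only 4 of the 72 libraries, with at most 4 counts in any of them, and entered no comparison with naïve mice. Chchd2 was also first in both atria.

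**Figure D1:**
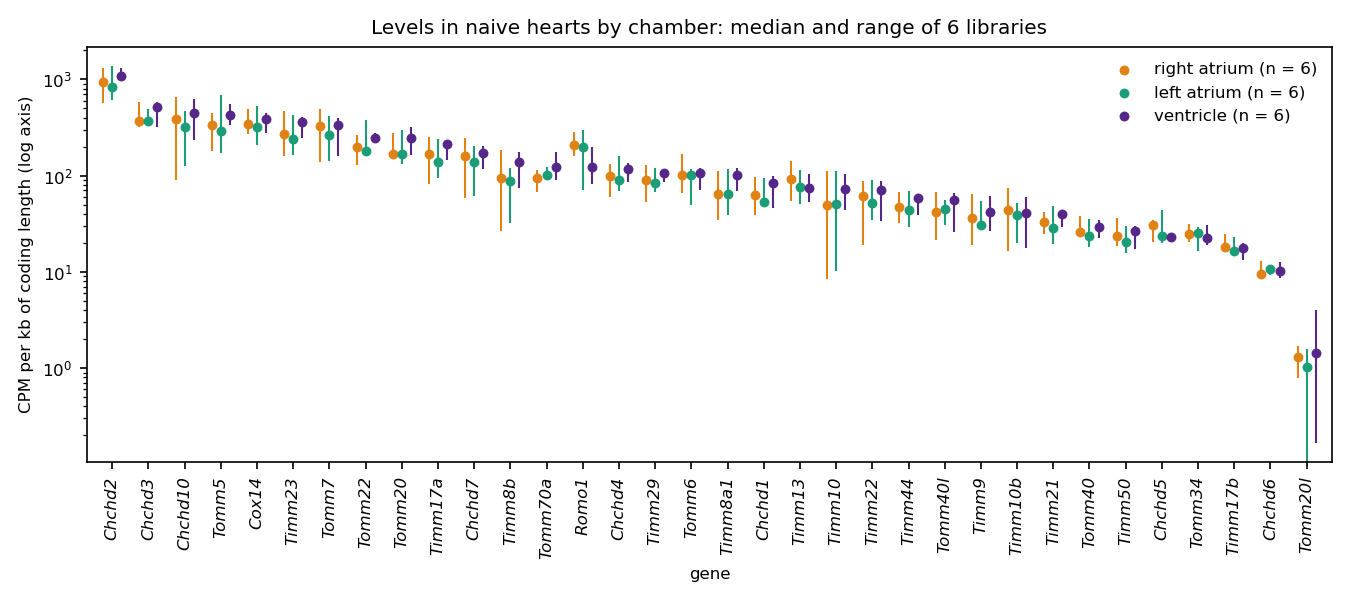
Levels of 34 members in naïve hearts by chamber, in CPM per kb of coding length on a log axis; points are medians and lines the range of the 6 libraries of each chamber as labelled. Chchd2 lies above all other genes in ventricles, where its range is 953 to 1300, and Tomm20l is the lowest gene drawn.

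High-dose female ventricles were the only one of the 18 comparisons with naïve mice, as labelled, in which members were called. Of the other 17, 16 called 0 genes of any kind, or 0.0%, and 1 called 3 genes. Compared with naïve females, 13 of the 34 members tested changed, 9 of them higher and 4 lower, or 38.2% of members against 23.7% of all 14006 genes tested (12.2% higher and 11.4% lower). Genes were tested by the quasi-likelihood F-test of edgeR, adjusted over all genes by the Benjamini-Hochberg procedure, and a change was called at an adjusted p below 0.05. The median log2 fold change of the members was 0.05, beside 0.01 over all genes, so that the members moved both ways rather than together. The libraries of both groups did not overlap for 20 of the 34 members, beside 41.0% of all genes. Summed cell type markers also differed without overlap between these libraries. Cardiomyocyte transcripts were at 47000 to 75500 CPM beside 27200 to 35200 CPM in naïve females, and ventricular ones at 8150 to 11100 beside 6250 to 8090 CPM. Fibroblast transcripts were lower, at 1060 to 1210 beside 1270 to 1600 CPM. Skeletal muscle transcripts were at 1580 to 1930 beside 1250 to 1400 CPM and adipocyte ones at 305 to 330 beside 272 to 290 CPM. The part of these in the changes was not tested.

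Romo1 showed the largest change of any member. It had 19.6, 22.7 and 32.1 CPM in the naïve female ventricles and 127, 133 and 133 CPM in the high-dose ones. Every exposed library was thus far above every naïve library, with a log2 fold change of 2.43 ± 0.17 (SE, n = 3 per group, edgeR adjusted p = 3.85e-05). It was the only member at an adjusted p below 0.0001. Romo1 overlaps Nfs1, whose product supplies iron-sulfur clusters, and whether counting used strand is not given in the sources used here. Nfs1 itself had mean levels of 151 CPM in naïve and 144 CPM in high-dose ventricles, with a log2 fold change of -0.03. Of the other overlapping genes, Gm867, which overlaps Chchd10, had 16.9 CPM in naïve and 2.81 CPM in high-dose libraries (log2 fold change -2.60, edgeR adjusted p = 0.0582), and Nkapd1, which overlaps Timm8b, had a log2 fold change of -0.40. Reads of these pairs may not be told apart.

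Cox14, which acts on the first steps of cytochrome c oxidase assembly, had 62.4, 69.4 and 71.3 CPM in naïve and 109, 177 and 181 CPM in high-dose female ventricles. The groups did not overlap, and the log2 fold change was 1.24 ± 0.18 (SE, n = 3 per group, edgeR adjusted p = 0.00108).

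**Figure D2:**
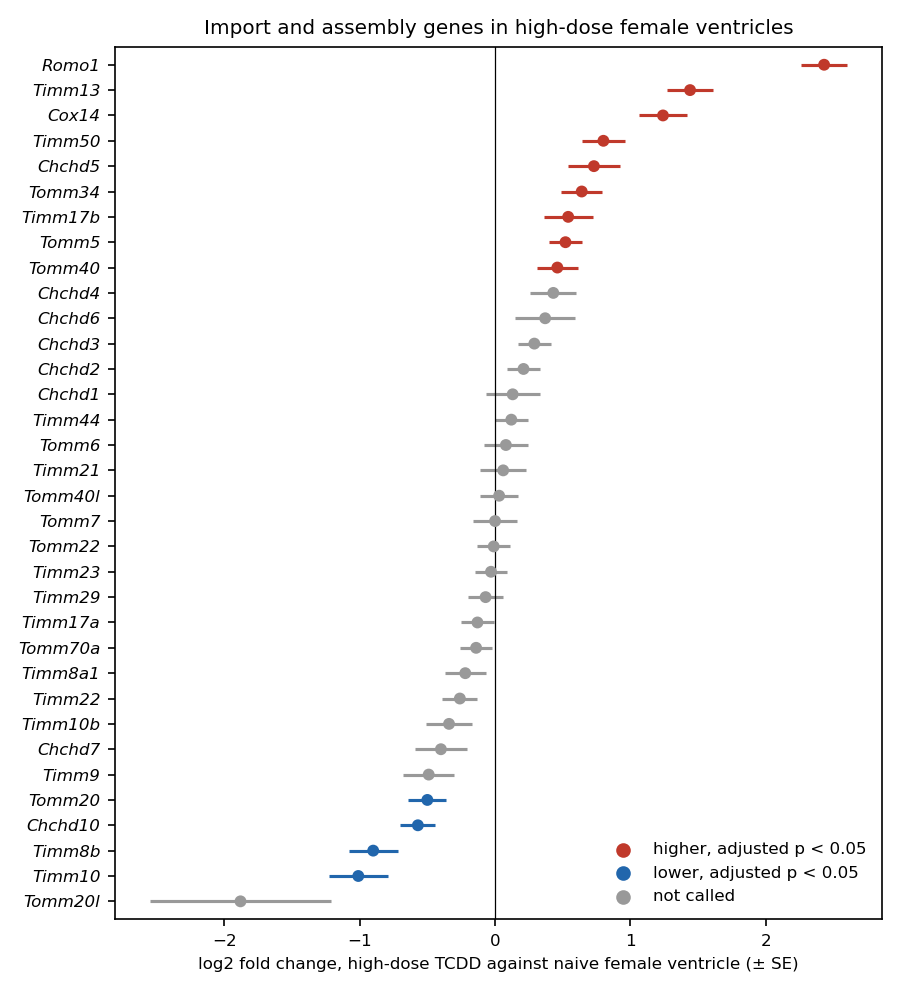
Log2 fold change ± SE (edgeR) of the 34 members tested, high-dose TCDD-exposed against naïve female ventricles, 3 libraries per group; red, higher and blue, lower at an adjusted p below 0.05. Romo1, Timm13 and Cox14 stand above 1, while Timm10 is near -1 and Tomm20l, the lowest value at -1.88, did not pass the test.

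The small TIM chaperones of the intermembrane space changed in opposite directions. Timm13, which forms a ring with Timm8 proteins, had 19.3, 22.4 and 24.4 CPM in naïve and 48.9, 50.7 and 74.6 CPM in high-dose female ventricles, a log2 fold change of 1.44 ± 0.17 (SE, n = 3 per group, edgeR adjusted p = 0.000433). Its partner Timm8b had 40.0, 41.0 and 43.7 CPM in naïve libraries and only 17.2, 19.0 and 28.9 CPM after exposure. Timm8b thus fell by 0.90 on the log2 scale, with an adjusted p of 0.00476 in the same edgeR fit, although it shares a ring with the gene that rose. Timm8a1, the other expressed Timm8 gene, had a log2 fold change of -0.22 and did not pass the test. Timm10, which builds the ring that escorts metabolite carriers, fell by 1.01 (adjusted p = 0.00646), from 24.1, 27.3 and 28.2 CPM to 8.17, 14.8 and 15.9 CPM. The naïve and exposed libraries of Timm10 did not overlap. Its ring partner Timm9 had a log2 fold change of -0.49 and Timm10b, which docks the ring on the TIM22 complex, -0.34, and neither passed the test. Of these 6 chaperone genes, 1 rose, 2 fell and 3 were not called.

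Among the inner-membrane translocases, Timm50 and Timm17b rose. Timm50, the presequence receptor of the TIM23 complex, had 28.1, 28.5 and 31.5 CPM in naïve and 39.3, 49.7 and 60.4 CPM in high-dose female ventricles, a log2 fold change of 0.80 (adjusted p = 0.00434). Timm17b, a channel-lining subunit, rose by 0.54 with an edgeR adjusted p of 0.0452. It is among the least stable of the calls, kept in 1 of 10 other analysis settings and 1 of 6 fits with a library left out. Its close relative Timm17a had a log2 fold change of -0.13, the channel Timm23 had -0.03, Timm44, which tethers the import motor, 0.12, and Timm21, which links the complex to the respiratory chain, 0.06. None of these 4 passed the test. Of the TIM22 complex, the channel subunit Timm22 had -0.26 and Timm29 had -0.07, again without a call.

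In the outer membrane, the channel protein, a small subunit and a co-chaperone were called higher and a single receptor lower. The channel protein Tomm40 rose by 0.46 (adjusted p = 0.0385) and the small subunit Tomm5 by 0.52 (adjusted p = 0.00754), the latter from 132, 133 and 134 CPM to 172, 191 and 193 CPM. Tomm34, a cytosolic co-chaperone of precursors, rose by 0.64 (adjusted p = 0.00821). The presequence receptor Tomm20 fell by 0.50 (adjusted p = 0.0194), from 105, 107 and 109 CPM to 63.7, 70.7 and 86.8 CPM. Both the Tomm40 and the Tomm20 call were lost after removal of the GC trend and without library 35. Tomm40 was called in only 4 of 10 other analysis settings and 1 of 6 fits with a library left out, and Tomm20 in 6 and 2. The central receptor Tomm22 had a log2 fold change of -0.01, the carrier receptor Tomm70a -0.14, and the small subunits Tomm6 and Tomm7 had 0.08 and 0.00, with no call. Tomm20l, which overlaps Timm9, had -1.88 ± 0.67 (SE) at a mean level of 1.51 CPM in naïve and 0.395 CPM in high-dose libraries, with an edgeR adjusted p of 0.0567. This rests on 12, 23 and 29 reads in naïve and 2, 9 and 10 reads in high-dose libraries, so that its counting error is large here and in every value of Tomm20l below.

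Among the Chchd genes, Chchd5, an intermembrane-space protein, rose and Chchd10 fell. Chchd10 had 224, 242 and 260 CPM in naïve and 148, 149 and 181 CPM in high-dose female ventricles, a decrease of 0.57 on the log2 scale (a log2 fold change of -0.57, adjusted p = 0.00759) with no overlap between groups. Its abundant relative Chchd2 had a log2 fold change of 0.21 and did not pass the test. Chchd5 had 7.21, 7.73 and 7.81 CPM in naïve and 11.8, 12.3 and 12.7 CPM in exposed libraries, a log2 fold change of 0.73 (adjusted p = 0.0136). Chchd4, the oxidoreductase that drives import into the intermembrane space, had 0.43, Chchd3 had 0.29, Chchd6 had 0.37, Chchd7 had -0.40 and Chchd1, a protein of the mitochondrial ribosome, had 0.13, all without a call.

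Transcript GC content varied with the change in this comparison. Over the 13177 tested genes with a known value, Spearman's rho between GC content and log2 fold change was 0.524, and the median change was -0.397 in the lowest of 5 equal bins of GC content and 0.357 in the highest. This is a description across genes measured in the same 6 libraries. The 9 members that rose had a median GC content of 55.6% (47.2 to 61.5%), and the 4 that fell had 51.1% (45.1 to 58.2%). With the GC trend of each library removed, Romo1 still had a log2 fold change of 2.07, Timm13 of 1.10 and Cox14 of 0.99, Timm10 had -1.13, Timm8b had -0.89 and Chchd10 had -0.90, all with an adjusted p below 0.05 in edgeR. Tomm40, the member of highest GC content, had 0.09 after this step and Tomm20 had -0.28, and both calls were lost.

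**Figure D3:**
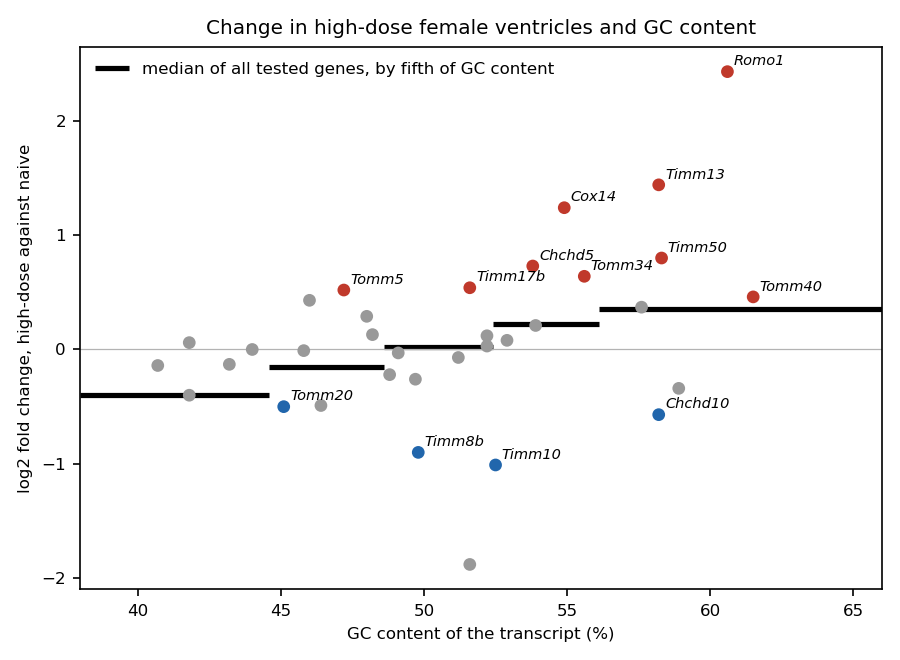
Log2 fold change in high-dose against naïve female ventricles plotted against transcript GC content for the 34 members (red, higher; blue, lower; grey, not called), with black bars for the median of all tested genes in each of 5 equal bins of GC content. Romo1, Timm13 and Cox14 lie above the bar of their bin, and Timm8b, Timm10 and Chchd10 lie below theirs.

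Romo1, Timm13 and Cox14 were called in all 10 other analysis settings and with each of the 6 libraries left out in turn. Timm10 and Chchd10 were called in 9 of the 10 settings and Timm8b in 8, and each of them remained so with every library left out. The same held for Timm50 (9 settings) and Tomm5 (8 settings). Tomm34 was called in 8 settings, Tomm20 in 6, Chchd5 in 5, Tomm40 in 4 and Timm17b in 1. Of the 6 fits with a library left out, 5, 2, 4, 1 and 1 called them, in that order. Without library 35, the naïve library with 190 CPM of Myl4, 9 members were called, 6 higher and 3 lower, beside 10.9% of genes (5.53% higher), and the calls of Chchd5, Tomm20, Tomm40 and Timm17b were lost. Without naïve library 36 the count was 8. Library-size scaling alone, which shifted the median of all genes by -0.17, gave 4 higher and 5 lower, so that the balance of directions depends on the scaling.

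Promoter sequence was examined for the members that moved most, because AHR itself binds DNA. RefSeq promoters (GRCm38.p6) were found for 30 of the 35 members, and the 250 bases before the start that RefSeq lists for each were searched on both strands for the AHR core GCGTG, the NRF1 core TGCGCA and the ETS site CCGGAAG bound by GABPA, both of the latter being regulators of mitochondrial genes. The AHR core was present for 14 of the 30 members, or 46.7%, beside 28.2% of all 32851 promoters. It was found in 3 of the 9 promoters of members that rose and in all 4 of those that fell. These groups were set by the calls in these same data, and the background was not matched for GC content. The GABPA site was present for 11 members, or 36.7%, beside 6.91% of all promoters, and the NRF1 core for 4, or 13.3%, beside 6.43%. Members were counted by gene, with a match in any promoter of the gene, and the background by single promoter. These shares are therefore not in the same unit. The windows of a chaperone pair that diverged, Timm13 and Timm8b, are shown with that of Timm10, each cut to its longest stretch outside annotated exons, with matches on either strand in capitals. A match is a run of letters and not evidence of binding, and the Cox14 window held none of the 3 motifs.
Timm13, chr10:80900970-80901202, minus strand: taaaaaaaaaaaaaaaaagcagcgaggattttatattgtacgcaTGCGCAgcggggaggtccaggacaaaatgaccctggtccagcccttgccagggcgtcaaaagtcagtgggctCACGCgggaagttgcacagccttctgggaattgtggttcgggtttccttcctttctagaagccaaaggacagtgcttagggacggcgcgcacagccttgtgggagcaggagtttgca
Timm8b, chr9:50603813-50603900, plus strand: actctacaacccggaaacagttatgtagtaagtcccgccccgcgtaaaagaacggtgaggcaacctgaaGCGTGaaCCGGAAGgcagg
Timm10, chr2:84826771-84826996, plus strand: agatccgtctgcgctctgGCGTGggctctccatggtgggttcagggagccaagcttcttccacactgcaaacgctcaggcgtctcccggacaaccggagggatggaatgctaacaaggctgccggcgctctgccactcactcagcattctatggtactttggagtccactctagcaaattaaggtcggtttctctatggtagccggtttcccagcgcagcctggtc
The Timm13 stretch has an AHR core and an NRF1 core, that of Timm8b an AHR core and a GABPA site, and that of Timm10 an AHR core. The GABPA site counted for Timm10 lies in an annotated exon at the gene's start. The Romo1 window, which precedes a later one of its annotated starts, holds the GABPA site at 2 places and no AHR core, but 213 of its 250 bases, with both sites, lie in annotated exons of Romo1 or Nfs1.

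Low-dose exposed and Ahr-/- females were compared with the same naïve ventricles, so the comparisons are not independent. No member was called in low-dose exposed females, in which 0 of 13966 genes passed (0.0%). There, 13 of 34 members had an unadjusted p below 0.05 with a higher level, beside 9.9% of all genes, and 32 of 34 were higher, with a member median of 0.38 beside 0.02 over all genes. Romo1 had 46.6, 60.5 and 197 CPM, above all naïve libraries but with a wide spread, and a log2 fold change of 2.04 ± 0.52 (SE, n = 3 per group, edgeR adjusted p = 0.153). Timm13 had 1.59 (adjusted p = 0.14) and Cox14 1.23 (adjusted p = 0.14). Library 47, which held 109 CPM of Myl4, also had 19000 CPM of summed ventricular transcripts, beside 6400 and 11200 CPM in libraries 48 and 72. Its summed atrial transcripts were at 373 CPM, beside 44.4 and 75.7 CPM. The part of these in the values below was not tested. Library 47 was the highest of its group for 29 of the 34 members. It carried 88.8 CPM of Timm8b beside 32.2 and 34.9 CPM in the other low-dose libraries, and 59.3 CPM of Timm10 beside 10.4 and 21.0 CPM. Library 47 had a member median of 0.97 against the naïve mean, beside 0.14 and 0.11 in libraries 48 and 72. Without it 20 of 34 members were higher, with a median of 0.16, and 8 had an unadjusted p below 0.05 for a higher and 3 for a lower level, beside 9.52% and 7.79% of genes. Romo1, Timm13 and Cox14 then had log2 fold changes of 2.32, 1.5 and 1.32, while Timm8b, Timm10 and Chchd10 had log2 fold changes of -0.30, -0.74 and -0.48 in place of values above 0.

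In Ahr-/- female ventricles 0 members were called and 3 of 13920 genes passed (0.0216%). Romo1 had 25.4, 53.1 and 77.2 CPM there, which overlaps the naïve libraries (log2 fold change 1.10, adjusted p = 0.515 with edgeR). Timm13 had 26.8, 36.9 and 49.8 CPM, above all naïve libraries, with a log2 fold change of 0.82 and the same adjusted p of 0.515. The member median was -0.04. Library 39 matches its label and was the highest of its group for 24 members. Without it 10 members were called, 2 of them higher and 8 lower, beside 7.11% of 13988 genes. Leaving out the library that is highest for most members lowers the group. The direction of these calls is therefore not independent of that choice. Between the doses in female ventricles, 0 of 33 members and 0.0% of 13994 genes were called. Of the members 28 were lower at the high dose, with a median difference of -0.24. Timm8b had the smallest p, with a log2 difference of -1.22 ± 0.37 (SE, edgeR adjusted p = 0.895). Without library 47 it had -0.62, the median was -0.07 and 25 of 34 members were lower, again with 0 called.

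**Figure D4:**
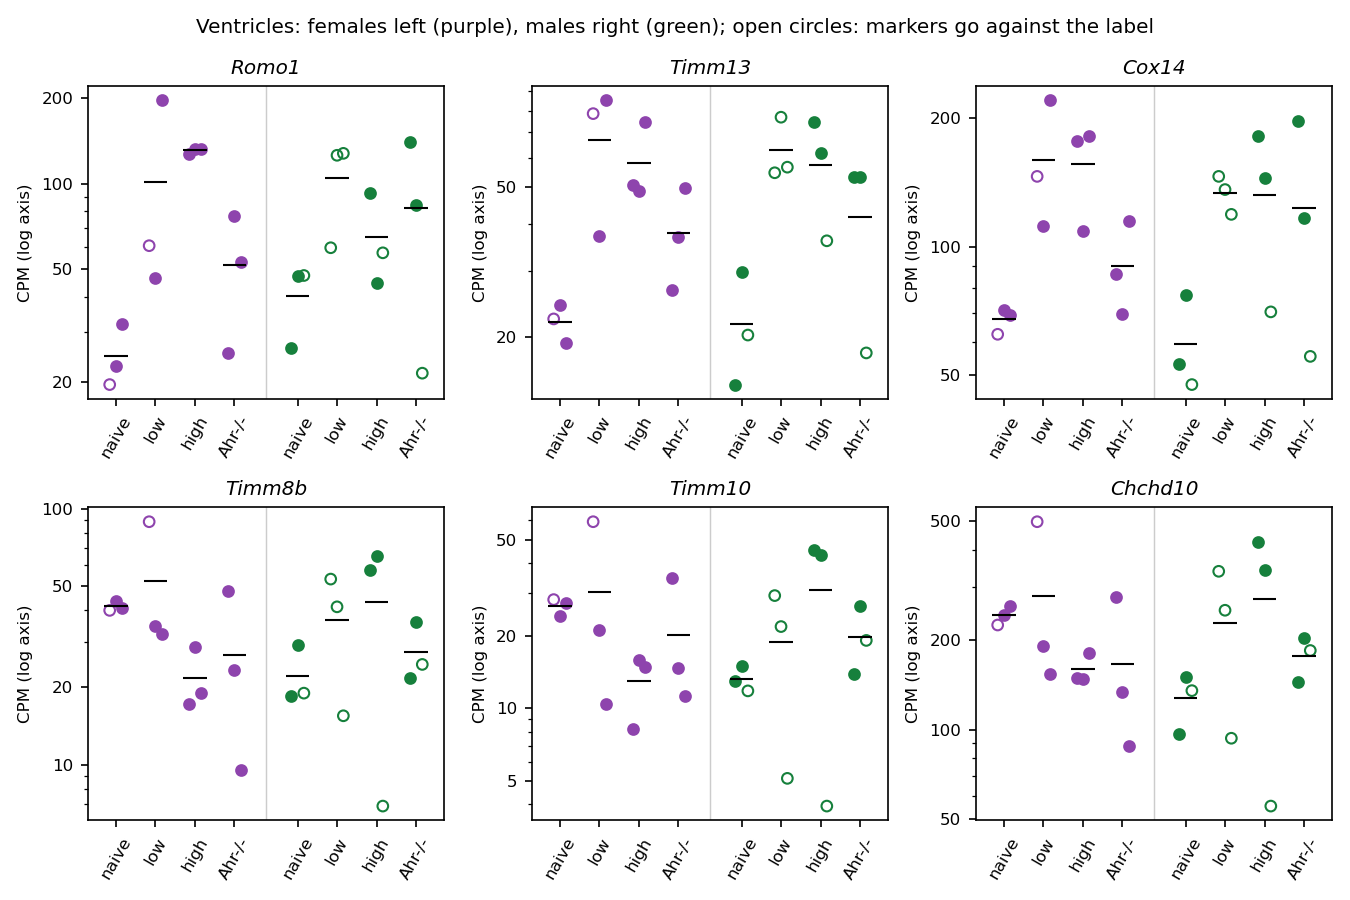
CPM (log axis) in each ventricle library of 6 members, females in purple and males in green, by group; lines are group means of 3 libraries and open circles mark libraries whose sex or chamber markers go against the label. Romo1 in high-dose females lies between 127 and 133 CPM, above all naïve libraries, and Timm8b, Timm10 and Chchd10 are lower than naïve in high-dose females but higher in the high-dose male libraries drawn as filled circles.

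In male ventricles as labelled, 0 of 33 members were called in each of the 3 groups, and in high-dose males 0 of 14162 genes passed (0.0%). In high-dose males 30 of 33 members were higher, with a median of 0.55 beside 0.07 over all genes. The 3 libraries of that group disagreed with each other. Timm10 had 43.3 and 45.1 CPM in libraries 42 and 41 but 3.93 CPM in library 65, which has female and atrial markers. Timm8b had 65.2, 57.6 and 6.88 CPM, and Chchd10 had 342, 425 and 55.4 CPM in libraries 42, 41 and 65. Without the libraries that go against their label, 2 high-dose libraries stood against naïve libraries 33 and 34. In that comparison 17 of 34 members were called, 16 higher and 1 lower, beside 15.9% of 13865 genes (7.13% higher). Marker sums of these libraries differed too. Ventricular transcripts were at 12300 and 13700 CPM beside 4470 and 7110 CPM in naïve males, red cell ones at 11100 and 19300 beside 4070 and 5070 CPM, skeletal muscle ones at 2210 and 2760 beside 838 and 1780 CPM, and fibroblast ones at 1140 and 1410 beside 972 and 1120 CPM. Adipocyte ones were at 344 and 422 beside 212 and 294 CPM, and smooth muscle ones at 240 and 314 beside 110 and 170 CPM. Summed atrial transcripts were at 830 and 88.3 CPM in naïve libraries 33 and 34 and at 424 and 99.1 CPM in high-dose libraries 41 and 42. Library 35, which goes against its label, held 576 CPM of them. The part of these marker differences in the calls was not tested. Timm10 then rose by 1.62 ± 0.24 (SE, n = 2 per group, edgeR adjusted p = 0.00895), Chchd10 by 1.60 (adjusted p = 0.0122) and Timm8b by 1.32 (adjusted p = 0.0169). Timm13 rose by 1.56, Cox14 by 1.29 and Timm50 by 1.29, as in females, while the carrier receptor Tomm70a fell by 0.78. Romo1 was not among the 17, with 44.8 and 92.5 CPM in these high-dose libraries beside 26.3 and 47.3 CPM in the naïve ones. Leaving out only library 65, or only library 53, gave 0 calls.

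Whether the sexes differed was tested as the interaction of sex and group. As labelled, 0 members and 0.0% of 14756 genes were called for high-dose ventricles, and 6 members had an unadjusted p below 0.05 for a lower female response, beside 2.38% of all genes. These were Timm9, Timm10, Tomm20l, Timm10b, Chchd10 and Timm8b, named after their values were seen, with female-minus-male log2 differences of -1.17, -2.19, -3.74, -1.38, -1.65 and -1.83. Romo1 had the smallest unadjusted p, with 1.77 ± 0.43 (SE, edgeR adjusted p = 0.952). Without the libraries that go against their label, 10 of 34 members were called, all with a lower response in females, beside 4.21% of 14533 genes (2.68% lower). The male libraries of this setting were 33, 34, 41 and 42, whose marker sums differ as given above. Timm10 then had -2.63 (adjusted p = 0.0018), Timm8b -2.30 (adjusted p = 0.00309) and Chchd10 -2.26 (adjusted p = 0.00138). Timm13 and Cox14 had -0.16 and -0.15, close to 0, and rose in both sexes in that setting, and Romo1 had 1.38 (adjusted p = 0.126). The 8 other interaction tests called no member and 0.0% of all genes as labelled.

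In the atria, none of the 12 comparisons with naïve mice called a member, and each called 0.0% of all genes. Over these and the 5 other ventricle comparisons, 63 tests of members had an unadjusted p below 0.05 with a higher level and 1 with a lower level, beside 4.02% and 4.14% of all tests of genes. Member medians were above 0 in 15 of the 17 comparisons and ran from -0.21 to 0.55, while those of all genes ran from -0.01 to 0.07. Because the 3 groups of a sex and chamber share their naïve libraries, these are not separate observations. Cox14 and Chchd1 were higher than naïve in all 18 comparisons, Timm13, Timm50, Chchd2 and Tomm40 in 17 and Romo1 in 14. Tomm70a, by contrast, was higher in only 3 of 18. Without the libraries that go against their label, female right atria kept only library 3 as naïve control, for Ahr-/- and low-dose females alike. Left atria of Ahr-/- females kept only library 58. With these fits, which lack replicates in a group, 15 of the 17 comparisons could be fitted. Of their member tests 82 had an unadjusted p below 0.05 with a higher and 6 with a lower level, beside 4.96% and 5.31% of genes, and 14 of the 15 medians were above 0. With high-dose female ventricles included, Cox14, Chchd1, Chchd2 and Tomm5 were then higher in 16 of 16. Chchd4, Chchd6, Tomm22 and Tomm40 were higher in 15, Timm13 and Timm50 in 14, Romo1 in 9 and Tomm70a in 3. In left atria of low-dose exposed females, Timm13 had 44.8, 47.6 and 69.3 CPM beside 15.4, 21.4 and 21.7 CPM in naïve females, with a log2 fold change of 1.48 ± 0.24 (SE, n = 3 per group, edgeR adjusted p = 0.153). Those groups do not overlap, yet no gene in that comparison passed the threshold (0.0%). The lowest member median, -0.21, was in right atria of Ahr-/- females, where 29 of 34 members were lower. In that comparison naïve library 4 held only 10.8 CPM of Myl4, and naïve library 50 and Ahr-/- library 56 had male markers, so that 2 of the 3 naïve libraries went against their label. Without these libraries, naïve library 3 alone stood against Ahr-/- libraries 7 and 8, and the median was 0.20, with 27 of 33 members higher. Library 3 had the lowest member median of its group, -0.41 against the naïve mean. The turned sign thus rests on that library as the only control. Summed adipocyte transcripts were 1100 to 2840 CPM in the Ahr-/- and 129 to 1050 CPM in the naïve libraries, and their part was not tested. In left atria of Ahr-/- females, restriction to libraries 1 to 48 called 14 members, all higher, beside 18.4% of genes (9.02% higher), but both Ahr-/- libraries of that setting had less than 100 CPM of Myl4. Across the doses, 0 members and 0.0% of all genes were called in the 5 other pairs of sex and chamber.

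**Figure D5:**
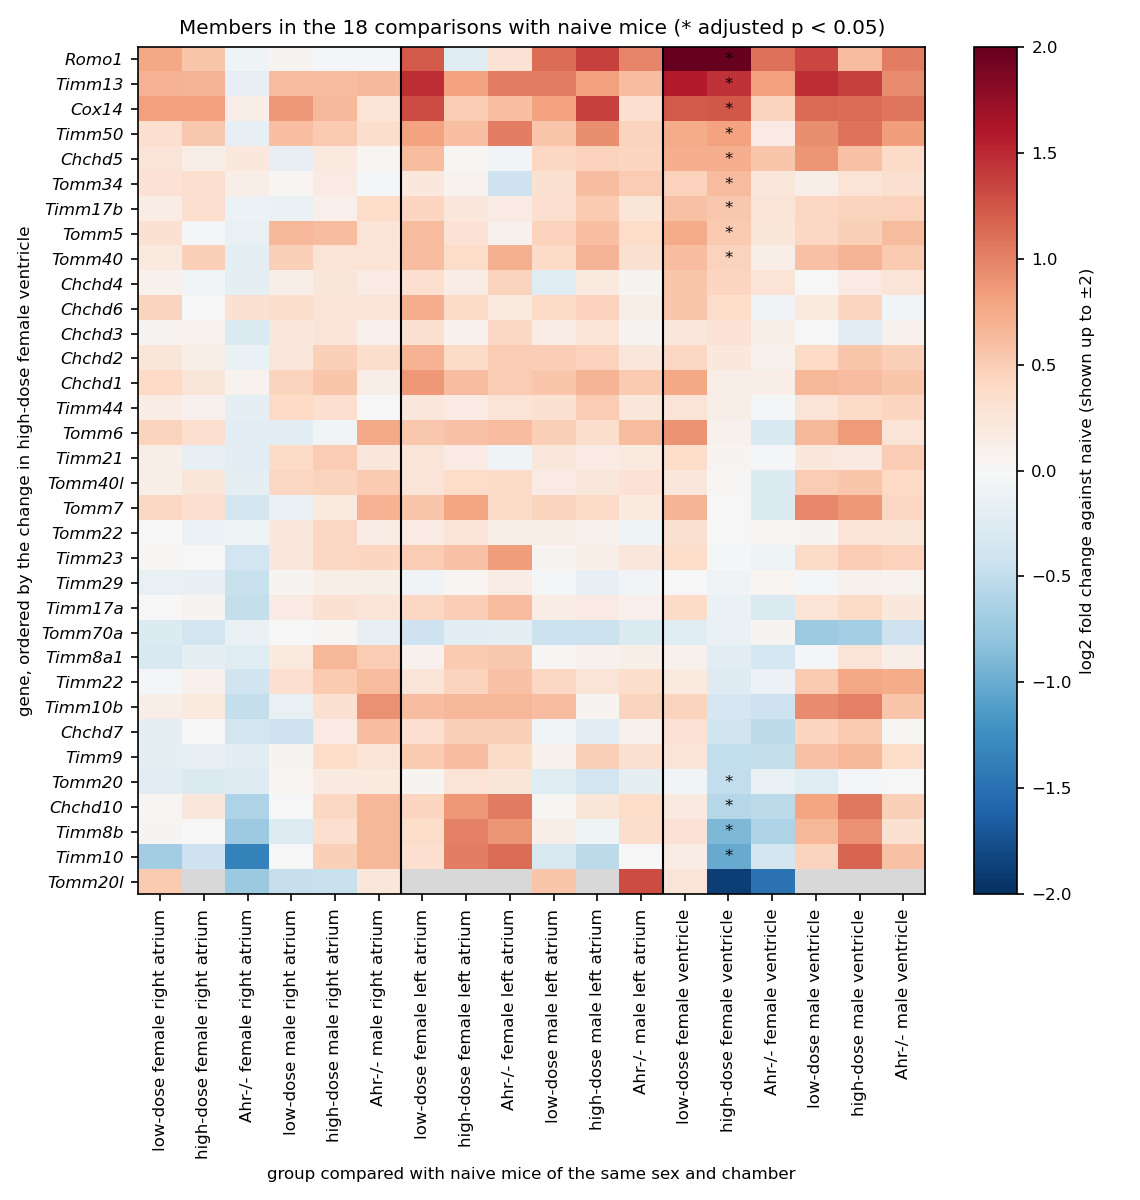
Log2 fold change of the 34 members (rows) in the 18 comparisons with naïve mice of the same sex and chamber (columns), colours limited to ±2 and grey where a gene was not tested; asterisks mark an adjusted p below 0.05. All 13 asterisks are in the high-dose female ventricle column, and Cox14 and Chchd1 are above 0 in every column.

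Chambers were compared among naïve mice with sex as a covariate. As labelled, 0 of 34 members were called in each of the 3 comparisons, beside 0.00671% of 14893 genes for ventricle against right atrium and 0.0% for the other two, with 25 members higher in ventricle than in right atrium (median 0.20) and 28 higher than in left atrium (median 0.23). Without the 5 naïve libraries that go against their label, 7 members were higher in ventricle than in right atrium beside 7.2% of 14995 genes. These were Timm8a1 (0.97), Timm17a (0.78), Timm23 (0.73), Tomm20 (0.72), Tomm70a (0.69), Chchd3 (0.57) and Tomm22 (0.49), in log2 units. Of these, Timm8a1, Timm17a, Timm23 and Chchd3 were also called higher than in left atrium, together with Chchd1 (0.71), beside 3.17% of genes. The mice that gave several chambers are not identified in the labels, so no pairing by mouse was made.

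The 68 partner genes of import in 7 lists were examined in high-dose female ventricles for comparison. Of these, 17 rose and 12 fell, beside 23.7% of all genes called, with a median of 0.08. Among presequence motor genes, 3 of 9 rose and 2 fell: the motor chaperone Hspa9 rose by 0.47 and its exchange factor Grpel1 by 0.42, while the motor subunit Dnajc19 fell by 0.53. In the disulfide relay 4 of 11 rose and 1 fell. Aifm1, which anchors Chchd4, rose by 1.03, the copper chaperone Cox17 by 0.64, and Coa6, another oxidase copper factor, fell by 1.48. In cristae organisation 3 of 10 rose and 5 fell, among which the prohibitins Phb2 and Phb rose by 1.05 and 0.75 and the protease Yme1l1 fell by 0.57. In the list of insertion and oxidase assembly 3 of 15 rose, including Timmdc1 (0.65) and the insertase Oxa1l (0.53), and Pet100 fell by 0.88. Of 6 presequence peptidases, Pmpcb rose by 0.35 and Immp1l fell by 1.04. Of 7 genes of outer-membrane beta-barrel pores and their assembly, Mtx1 rose by 0.63 and the pore gene Vdac3 fell by 0.44. Of 10 transcription factors of mitochondrial biogenesis, Pprc1 (0.53) and Esrra (0.42) rose and Tfb2m fell by 0.67, whereas Nrf1 (0.35), Gabpa (-0.01) and Ppargc1a (-0.22) were not called. Without library 35 the partner calls dropped from 29 to 12, beside 10.9% of all genes.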

How the data were processed

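Libraries were prepared from poly-A RNA of dissected chambers. According to the submitters' processing notes, CASAVA 1.8, bcl2fastq, TopHat, the mm10 build and DESeq were used. The authors deposited raw read counts per gene, with no normalization. Whether strand was used is not given in the sources used here. Counts were analysed as deposited with R 4.3.3: edgeR 4.0.16 (filterByExpr with a minimum count of 10 and minimum total of 15, TMM scaling, quasi-likelihood F-test), with DESeq2 1.42.0 and the alternatives of the closing section. Each comparison with naïve mice, and of the doses, was fitted on the 6 libraries of its sex and chamber. Interactions used 12 libraries and chambers 18 naïve libraries. Symbols were matched for 24155 of 24237 genes, and coding length and GC content came from the mouse GENCODE annotation. The procedure was run on simulated counts with known changes at a fixed dispersion. The simulation held no libraries that go against their label, so it does not cover such libraries. Counting error is small at these depths for most members, but not for Tomm20l and Timm8a2, which have few reads. Replicates are described by the study as separate mice, while the labels give library numbers only.

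The members and gene lists were chosen with earlier results of these data known. Named are Romo1 and Cox14, the members called in any comparison with naïve mice or between doses, the 3 largest and 3 smallest changes in high-dose female ventricles, the 5 highest and 3 lowest naïve ventricle levels, called members of chamber comparisons, and up to 3 partner genes a list. Other names were added after their values were seen.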

Additional observations from a re-analysis of the deposited data

Results flagged for a closer look

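In high-dose ventricles without the libraries that go against their label, the response differed between sexes by the interaction test for 10 members, all lower in females. The female-minus-male log2 differences were -2.26 for Chchd10, -1.33 for Chchd7, -2.63 for Timm10, -1.94 for Timm10b, -1.61 for Timm22, -2.30 for Timm8b, -1.70 for Timm9, -5.01 for Tomm20l, -1.36 for Tomm6 and -1.54 for Tomm7. As labelled, none of them was called.

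Each of the 27 sets examined held 6 naïve libraries, and chance flags about 1 in 20 of such sets. Sets of the same chamber share their libraries, so they are not separate trials. A library stood apart from the rest in 7 of the 27. In left atria it was library 51, with 632 CPM of Chchd2, 331 CPM of Chchd3 and 216 CPM of Tomm5, the highest in each case. In right atria library 4 was highest for Chchd3 with 395 CPM and library 50 for Chchd6 with 10.7 CPM. In ventricles library 53 was lowest for Chchd3 with 220 CPM. These 4 libraries go against their label by sex or chamber markers, and the part of this in the values was not tested. The remaining case, library 35 with 0.0743 CPM of Timm8a2 in ventricles, is 1 read beside 0 in the other 5 libraries and says nothing.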

How the results depend on the processing

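The 13 member calls in high-dose female ventricles became 4 with all 4 groups in a common fit (Romo1, Timm13, Cox14 and Tomm34) and 1 at a threshold of 0.0001, and ran from 8 to 14 with each library left out. The other 9 settings gave 9 to 13. Over the 17 other comparisons with naïve, where 0 members were called, DESeq2 called 12 and libraries 1 to 48 alone 32. The 32 include the calls in left atria of Ahr-/- females, where 18.4% of genes were called. The libraries that match their label called 17, all in high-dose male ventricles, where 15.9% of genes were called. No filter called 2, and leaving out each library gave 0 to 10. Counts given without a share of all genes are not read as results about the members. For the dose pairs outside female ventricles DESeq2 called 1 member. Interactions called 8 members with libraries 1 to 48, and 0 to 7 with each library left out, the 7 without library 65. With libraries that match their label they called 10, in high-dose ventricles, beside 4.21% of genes there. Chamber calls became 7 against right atrium and 5 against left atrium with libraries that match their label. The 29 partner calls, beside 23.7% of genes, became 17 with library size alone and 12 with libraries 1 to 48. Without library 35 they became 12, beside 10.9% of genes. They became 3 with all groups fitted together and 0 at 0.0001, and ran from 12 to 27 with each library left out. The cause of these differences was not tested, beyond fewer libraries where some were dropped.

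Signs that turned concern uncalled values. The sex difference in high-dose ventricles became -0.03, -0.13 and -0.15 for Cox14 and -0.09, -0.41 and -0.16 for Timm13 with library size alone, libraries 1 to 48 and libraries that match their label, and ran from -0.20 to 0.40 for Cox14 and from -0.25 to 0.29 for Timm13 with a library left out. In low-dose female ventricles with libraries that match their label Timm8b had -0.33, Timm10 -0.70 and Chchd10 -0.54, and with the length trend removed -0.07, -0.27 and -0.14. Timm10 had -0.04 there with a library series term and Chchd10 -0.08 with the GC trend removed. In low-dose male ventricles Timm10 had -0.11 with the length trend removed. With each library left out in turn, Timm8b ran from -0.30 to 0.56, Timm10 from -0.74 to 0.59 and Chchd10 from -0.48 to 0.50 in low-dose females, each lowest without library 47, and Timm10 from -0.02 to 0.88 in low-dose males, lowest without library 45.

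In 4 comparisons no fit was possible without the libraries that go against their label: high-dose female right atria, low-dose male ventricles, the doses in male ventricles and the low-dose ventricle interaction. No paired analysis was possible because library numbers are unique to each sample. With 3 libraries per group, an exact permutation test cannot go below p = 0.1.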
